A study of Mus musculus with 25 samples.

Results

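The 10 nuclear genes followed here in gastrocnemius muscle set the shape of mitochondria: Mfn1, Mfn2, Opa1, Dnm1l, Fis1, Mff, Mief2, Immt, Chchd3 and Oma1. They were chosen by name, as genes of mitochondrial fusion, fission and cristae, and all 10 had a row among the 8829 genes of the deposited table. The muscles came from male SAMP8 mice, an inbred strain selected for accelerated senescence, that entered treatment at 8 months of age. Control mice (n = 11) received vehicle and the other mice (n = 14) received thymol, a plant monoterpene phenol. The oral dose was 20 mg per kg on each dosing day, and the study did not dose on every day of the week. Both treatments lasted 3 months. Each mouse gave 1 library, in which the 3′ ends of polyadenylated transcripts were counted (QuantSeq). Both groups were of the senescence-prone strain, and no strain with normal ageing was part of the comparison.

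Mitochondria in muscle fibres fuse and divide throughout life. The outer membranes are joined by the mitofusins (Mfn1, Mfn2) and the inner membranes by the dynamin-like GTPase encoded by Opa1, which the inner-membrane protease Oma1 cleaves under stress. Division is carried out by the cytosolic GTPase encoded by Dnm1l (DRP1), which is drawn to the outer membrane by adaptors, among them Mff, Mief2 (MiD49) and, in some settings, Fis1. The folds of the inner membrane, the cristae, are held at their necks by the MICOS complex, whose core subunit mitofilin is encoded by Immt and whose partner subunit is encoded by Chchd3.

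On the mouse assembly GRCm38 the fusion genes lie at chr3:32529465-32579239 (Mfn1, plus strand), chr4:147873599-147904704 (Mfn2, minus strand) and chr16:29579334-29654884 (Opa1, plus strand). The fission genes lie at chr16:16312230-16358959 (Dnm1l, minus strand), chr5:136953275-136966234 (Fis1, plus strand), chr1:82724890-82752394 (Mff, plus strand) and chr11:60728398-60732951 (Mief2, plus strand). Immt lies at chr6:71831331-71877388 on the plus strand, Chchd3 at chr6:32790976-33060260 on the minus strand and Oma1 at chr4:103313812-103371868 on the plus strand. Exons of Dnm1l, Mff and Immt overlap those of a noncoding gene on the other strand (Gm49521, C430014B12Rik and Gm44771). Within the last 400 bases of their transcripts, 7.53% of the 31-base words of Dnm1l also occur in Gm13719, and 5.70% of those of Immt occur in Gm19617, so reads on these stretches could be shared or lost in counting.

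Promoters are shown for 5 of the genes, from 250 bases before to 50 bases after the transcript start (RefSeq, GRCm38.p6). All 10 genes were matched, with 15 start sites between them. A match to GCGCANGCG, which makes up most of the site of the respiratory factor NRF1, was found on either strand in 3 of the 15 windows (Opa1, Immt and Oma1) and in 6.25% of all 32851 promoters. That share is not matched for base content. G and C made up 53.3% (Opa1), 59.3% (Immt) and 65.7% (Oma1) of these 3 windows, against a median of 52.7% over all promoters. The site of the oestrogen-related receptors, TCAAGGTCA, was found in 0 of the 15 windows and in 0.423% of all promoters. The first 3 sequences are shown because they hold the NRF1 letters, given in capitals. In Opa1 the capitals are 2 overlapping matches, 1 on each strand. The last 2 belong to Mfn2 (1 of its 3 listed starts) and Chchd3, the pair of genes whose levels moved together most closely between mice, and neither holds these motifs.
Opa1, chr16:29579084-29579383, plus strand: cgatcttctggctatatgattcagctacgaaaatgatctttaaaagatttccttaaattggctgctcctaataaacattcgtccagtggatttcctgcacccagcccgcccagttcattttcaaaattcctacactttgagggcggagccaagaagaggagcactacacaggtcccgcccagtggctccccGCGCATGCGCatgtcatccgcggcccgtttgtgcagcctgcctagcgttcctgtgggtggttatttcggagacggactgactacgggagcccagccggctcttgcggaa
Immt, chr6:71831070-71831369, plus strand: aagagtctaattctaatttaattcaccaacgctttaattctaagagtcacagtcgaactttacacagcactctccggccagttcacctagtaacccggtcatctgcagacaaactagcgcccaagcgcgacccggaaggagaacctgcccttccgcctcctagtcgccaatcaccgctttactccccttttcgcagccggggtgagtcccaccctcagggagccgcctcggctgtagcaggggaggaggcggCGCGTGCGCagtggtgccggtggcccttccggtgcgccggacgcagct
Oma1, chr4:103313596-103313895, plus strand: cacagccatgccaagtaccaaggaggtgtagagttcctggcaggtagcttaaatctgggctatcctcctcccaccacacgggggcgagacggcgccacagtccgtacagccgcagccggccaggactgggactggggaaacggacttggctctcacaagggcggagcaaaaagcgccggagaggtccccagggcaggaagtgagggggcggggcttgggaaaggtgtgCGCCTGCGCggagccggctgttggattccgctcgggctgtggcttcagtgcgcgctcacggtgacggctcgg
Mfn2, chr4:147904612-147904911, minus strand: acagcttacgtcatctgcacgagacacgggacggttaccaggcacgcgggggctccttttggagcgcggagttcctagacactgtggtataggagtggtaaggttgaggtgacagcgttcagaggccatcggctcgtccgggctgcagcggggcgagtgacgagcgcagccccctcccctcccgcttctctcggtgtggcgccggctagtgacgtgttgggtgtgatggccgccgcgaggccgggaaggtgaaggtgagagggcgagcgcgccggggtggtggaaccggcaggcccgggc
Chchd3, chr6:33060211-33060510, minus strand: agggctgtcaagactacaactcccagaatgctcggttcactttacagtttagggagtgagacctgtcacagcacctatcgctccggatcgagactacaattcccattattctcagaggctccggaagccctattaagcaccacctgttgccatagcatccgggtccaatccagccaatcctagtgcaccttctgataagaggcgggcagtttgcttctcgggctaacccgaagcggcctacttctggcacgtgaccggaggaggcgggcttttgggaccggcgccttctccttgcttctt
These matches describe letters in a window and were not tested as binding sites.

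The libraries held between 4463818 and 9463418 reads on the genes of the table (median 7554333 in control and 7479077 in thymol mice). Values are log2 CPM, the log2 of read counts scaled to a common library size. The 8 markers of skeletal muscle fibres, the labelled tissue, were all present and together held between 110510 and 153890 CPM in every mouse. Slow-fibre markers ranged from 83.8 to 8671 CPM, and markers of fat cells, leukocytes and fibroblasts also varied between mice of both groups. Control 18 (a mouse named by its group and the last number of its label) stood apart. It had the highest share of reads on genes of the mitochondrial genome, 33.9%, with 31.8% in the next mouse (Control 35) and 22.003% in the lowest. It had the highest summed leukocyte markers, 271.7 CPM against 197.0 CPM in the next mouse. Its summed fibroblast and tendon markers were also the highest, 2654 CPM against 2280 CPM in the next mouse. For results that rest on it, values without it are also given where they were computed. In whole muscle, fewer cells of a type and less RNA per cell cannot be told apart.

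All 10 genes were well expressed, and Mfn2 was highest. Because reads were taken from transcript ends, these levels count transcripts without scaling for length, although genes can differ in how well their ends are captured. Mean levels over the 25 mice on the log2 CPM scale were 7.93 for Mfn2 (245.1 CPM), 7.36 for Immt, 7.15 for Chchd3, 6.82 for Mfn1, 5.90 for Fis1, 5.78 for Opa1, 5.45 for Mff, 5.30 for Mief2, 5.18 for Dnm1l and 4.46 for Oma1 (22.2 CPM). The median gene of the table was at 4.09, so that even the lowest of the 10 was above it, and Mfn2 ranked 338 of 8829.

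The order held in every mouse for some neighbours only. Mfn2 was above Immt, Mfn1 above Fis1, Opa1 above Mff and Dnm1l above Oma1 in 25 of 25 mice, and Chchd3 was above Mfn1 in 24. Immt exceeded Chchd3 in 21 mice, Fis1 exceeded Opa1 in 19, Mff exceeded Mief2 in 17 and Mief2 exceeded Dnm1l in 17. For these last 4 pairs the mean difference in level was smaller than its SD between mice (0.21 ± 0.23, 0.12 ± 0.25, 0.15 ± 0.23 and 0.12 ± 0.22 on the log2 scale, SD, n = 25), so the order of these pairs changed from mouse to mouse.

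Between the mitofusins the difference was wide. Mfn2 was 2.26-fold above Mfn1 in control mice (range 1.80 to 2.98) and 2.07-fold above it in thymol mice (range 1.73 to 2.44). The DRP1 adaptors Fis1 and Mff were 1.61-fold and 1.23-fold above Dnm1l itself in control mice, and 1.68-fold and 1.19-fold above it in thymol mice. The level of Mief2 was 1.03-fold that of Dnm1l in control mice and 1.14-fold in thymol mice. These ratios of geometric means carry no test.

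The levels varied little from mouse to mouse. The SD within groups on the log2 scale was lowest for Mff (0.13) and Opa1 (0.13), and highest for Oma1 (0.24). All 10 lay below the median SD of all genes, 0.275, and Mff and Opa1 were at percentiles 3.64 and 3.79 of the table. SD falls as level rises in count data, and these genes lay above the median level. Counting error alone, at the median number of reads, would give an SD of 0.03 for Mfn2 and 0.11 for Oma1, below the observed SD of 0.16 and 0.24.

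**Figure D1:**
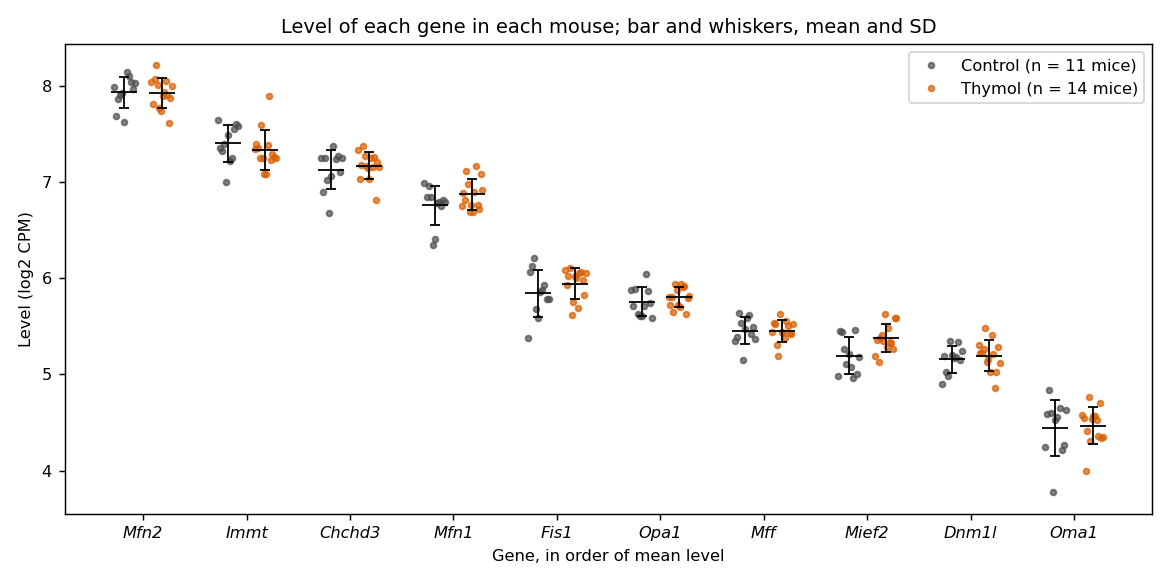
Level of each gene (log2 CPM, vertical axis) in each of 11 control and 14 thymol mice, with genes in order of mean level. Each point is a mouse and the bars and whiskers are group mean and SD. The groups overlap for each gene, from Mfn2 near 7.93 to Oma1 near 4.46.

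Whether thymol changed this machinery was asked by comparing the groups across all genes with limma. None of the 10 genes passed the test, and neither did any other gene of the table: 0 of 8829 genes (0%) had an adjusted p under 0.05 (limma, Benjamini-Hochberg), with 312 genes (3.53%) at an unadjusted p under 0.05. Voom on reads recovered from the values also called 0 genes. Of the 10 genes, 7 had a higher mean and 3 a lower mean with thymol, with a median log2 difference of 0.04 against -0.0014 over all genes. Without Control 18 the median of the 10 was 0.02. A single member, Mief2, had an unadjusted p under 0.05, in the higher direction, where 1.83% of all genes did.

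Among the fusion genes, Mfn1 ranged from 6.34 through a median of 6.80 to 6.995 log2 CPM in control mice and from 6.69 through 6.85 to 7.17 in thymol mice. Its mean was 6.76 ± 0.20 in control and 6.87 ± 0.16 in thymol mice (SD), a log2 difference of 0.12 (95% confidence interval -0.03 to 0.26, unadjusted p = 0.111 in limma). The groups overlapped, with 11 of 14 thymol mice inside the control range. Without Control 18, the mouse with the lowest Mfn1, the difference was 0.08 (unadjusted p = 0.261 in limma). Mfn2 ranged from 7.63 through 7.97 to 8.15 in control mice and from 7.61 through 7.92 to 8.21 in thymol mice. Its log2 difference was -0.01 (-0.14 to 0.12), an interval that spans folds from 0.906 to 1.08. Opa1 ranged from 5.59 through 5.71 to 6.05 in control mice and from 5.63 through 5.81 to 5.95 in thymol mice. All 14 thymol mice lay within the control range of Opa1, and its log2 difference was 0.05 (-0.07 to 0.17).

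For the protease gene Oma1, the lowest, median and highest levels were 3.77, 4.56 and 4.84 in control mice and 3.99, 4.53 and 4.77 in thymol mice. The log2 difference of Oma1 was 0.02 (-0.17 to 0.22), the widest interval of the 10. Without Control 18, the mouse with the lowest Oma1, it was -0.04.

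Among the fission genes, Mief2 had the largest difference. Mief2 ranged from 4.96 through a median of 5.19 to 5.46 log2 CPM in control mice and from 5.13 through 5.35 to 5.63 in thymol mice. Thus 13 of 14 thymol mice lay above the control median, while 10 of 14 lay inside the control range, so the groups overlapped. The mean level was 5.19 ± 0.19 in control and 5.38 ± 0.15 in thymol mice (SD), a 1.14-fold difference (log2 0.19, SE 0.07, 95% confidence interval 0.04 to 0.33). The unadjusted p of Mief2 was 0.0136, which placed it 74th of all genes, and the adjusted p was 0.9999 in limma. Levels of Mief2 also followed depth between mice (r = 0.46, n = 25). With depth in the model the log2 difference was 0.15 (unadjusted p = 0.0326), and with the first number of the label as a block it was 0.17 (unadjusted p = 0.0615). Across the mice left out in turn it stayed between 0.16 and 0.21.

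The other fission genes differed less. Dnm1l ranged from 4.90 through 5.18 to 5.35 in control mice and from 4.86 through 5.22 to 5.49 in thymol mice, with a log2 difference of 0.04 (-0.10 to 0.17) and of 0.01 without Control 1. Fis1 ranged from 5.38 through 5.86 to 6.21 in control mice and from 5.62 through 6.01 to 6.11 in thymol mice. All 14 thymol mice lay inside the control range of Fis1, and its log2 difference was 0.10 (-0.06 to 0.26, unadjusted p = 0.221 in limma). Without Control 1, the mouse with the lowest Fis1, it was 0.05. The adaptor gene Mff ranged from 5.15 through 5.48 to 5.64 in control mice and from 5.19 through 5.44 to 5.63 in thymol mice. Its log2 difference was -0.01 (-0.13 to 0.11), the smallest of the 10 in size.

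Of the cristae genes, Immt ranged from 7.004 through 7.39 to 7.64 in control mice and from 7.08 through 7.28 to 7.90 in thymol mice. For Immt, 12 of the 14 thymol mice were under the median of the controls, but 13 lay inside the control range and the log2 difference was -0.07 (-0.23 to 0.09, unadjusted p = 0.399 in limma). It was -0.11 without Control 18, and with the label-number block its sign turned (0.05). Chchd3 ranged from 6.68 through 7.24 to 7.37 in control mice and from 6.82 through 7.18 to 7.37 in thymol mice, with a log2 difference of 0.04 (-0.10 to 0.18). The lowest control value of Chchd3 was that of Control 18, and without this mouse the difference was -0.0018.

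**Figure D2:**
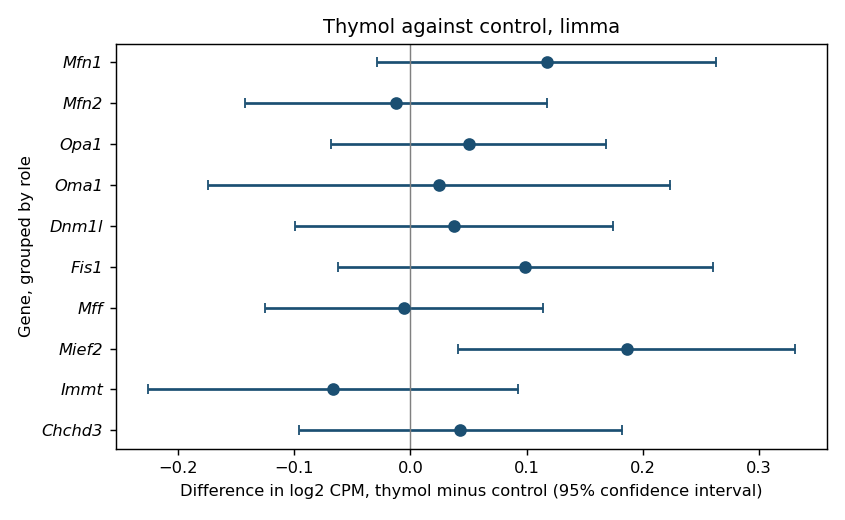
Difference in mean level between 14 thymol and 11 control mice (log2 CPM, horizontal axis) for the 10 genes, with 95% confidence intervals from limma. The interval of Mief2 runs from 0.04 to 0.33, and the other 9 include 0.

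Other genes of the same processes were read from the same fit. Among 11 other fission genes, 7 other inner-membrane proteases and prohibitins, 12 other MICOS and contact-site genes, 6 genes of cardiolipin synthesis and ATP synthase dimers, 5 genes of mitochondrial transport, 20 subunits of oxidative phosphorylation and 11 regulators of mitochondrial biogenesis, 0 had an unadjusted p under 0.05. Among 7 other genes listed for fusion or its regulation there was 1, Mul1, an outer-membrane ubiquitin ligase that acts on mitofusins. As Mul1 is a regulator, its level gives no direction of change in fusion. Mul1 was at 4.80 ± 0.12 in control and 4.62 ± 0.20 in thymol mice (SD), a log2 difference of -0.18 (unadjusted p = 0.0268, adjusted p = 0.9999 in limma). Median log2 differences of these 8 lists lay between -0.02 and 0.06. Of the listed markers of muscle fibres, slow fibres, fat cells, leukocytes, endothelium, fibroblasts and red blood cells, 0 had an unadjusted p under 0.05 in limma.

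Levels of the 10 genes were then compared between mice after the group means had been removed, to ask which rise and fall together. Over the 45 pairs the mean Pearson correlation was 0.14 (jackknife SE 0.08 over mice), against 4.3e-05 over all pairs of genes of the table. The latter covers genes of every level and kind, in values scaled to a common library size, so it is no matched background. Without Control 18 the mean over the 45 pairs was 0.07, and within the control and thymol groups it was 0.15 and 0.07. The correlation was positive for 31 pairs and negative for 14, from -0.48 to 0.65. In fits of all genes on each of the 10 in turn, 13 of the 90 member rows (14.4%) had an unadjusted p under 0.05, where 8.52% of all rows did. After adjustment over all other genes, 1 pair was called, Mfn2 with Chchd3.

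Mfn2 and Chchd3 moved together in both groups. Across the 25 mice r was 0.65 (two-sided permutation p = 0.00069) and Spearman's rho 0.71 (p = 0.00014, 100000 permutations within groups). The correlation was 0.57 in control and 0.76 in thymol mice, 0.59 without the 2 mice farthest from the median of Mfn2, 0.77 without Control 18 and 0.63 with depth removed. Thymol 28 was lowest of the thymol mice in both genes (7.61 and 6.82 log2 CPM) and Thymol 9 highest in both (8.21 and 7.37). In the control group Control 23 was highest in both (8.15 and 7.37), whereas Control 18 had a middling Mfn2 (7.92) and the lowest Chchd3 (6.68). The adjusted p in limma was 0.0374 for Mfn2 in the fit on Chchd3 and 0.136 for Chchd3 in the fit on Mfn2, so the call was made in 1 direction only. It was lost under quantile normalization, with depth as a covariate and with the label-number block. It was also lost without any 1 of 8 mice (Control 10, 23, 27 and 31 and Thymol 3, 6, 9 and 28).

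A negative relation joined Dnm1l, which divides mitochondria, and its adaptor Mff. Here r was -0.48 (permutation p = 0.0144) and rho -0.52 (p = 0.0096), with -0.42 in control mice, -0.56 in thymol mice, -0.65 without the 2 mice farthest from the median of Dnm1l and -0.41 without Control 18. This pair was not called after adjustment over all genes.

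**Figure D3:**
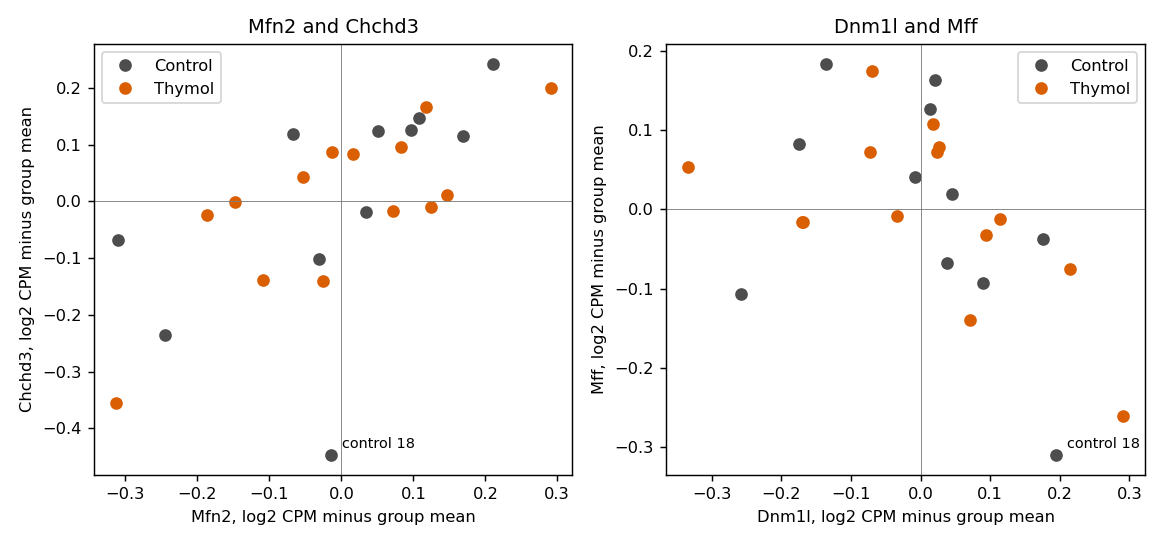
Levels of Mfn2 and Chchd3 (left) and of Dnm1l and Mff (right) in each mouse, as log2 CPM minus the group mean, with control and thymol mice coloured apart. Mfn2 and Chchd3 rise together (r = 0.65) with Control 18 low in Chchd3 only, and Mff falls as Dnm1l rises (r = -0.48).

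In all, 7 of the 45 pairs had a permutation p under 0.05 for r, and 2 had one for rho. These p values were not adjusted for the number of pairs, and the share over other pairs of genes was not computed. Besides the 2 pairs above, 5 pairs had a permutation p under 0.05 for r, though not for rho. They were Mfn1 with Immt (r = 0.52, rho = 0.39), Mfn1 with Chchd3 (r = 0.51, rho = 0.37), Opa1 with Chchd3 (r = 0.48, rho = 0.41), Mfn1 with Mfn2 (r = 0.44, rho = 0.35) and Fis1 with Mff (r = 0.43, rho = 0.33). Their permutation p values were 0.00791, 0.0142, 0.0225, 0.0315 and 0.0457. Leaving out the 2 mice farthest from the median, r was 0.51, 0.27, 0.56, 0.35 and 0.44. The relation of Mfn1 with Chchd3 therefore rested on those mice, of which Control 18 was 1 (r = 0.32 without it alone). For Mfn1 with Immt, r was 0.39 without Control 18 alone.

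Grouped after the values were seen, and given as a description, the 3 fusion and 2 cristae genes were positively correlated in all 10 of their pairs, with a mean r of 0.40 (0.38 in control mice, 0.42 in thymol mice and 0.34 without Control 18). Among the 4 fission genes and Oma1, the mean r over 10 pairs was 0.07, with 0.21 in control and -0.15 in thymol mice. Between both sets the mean r over 25 pairs was 0.05, and -0.04 without Control 18. Immt and Chchd3, whose products share a complex, had r = 0.29, and 0.06 without Control 18.

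**Figure D4:**
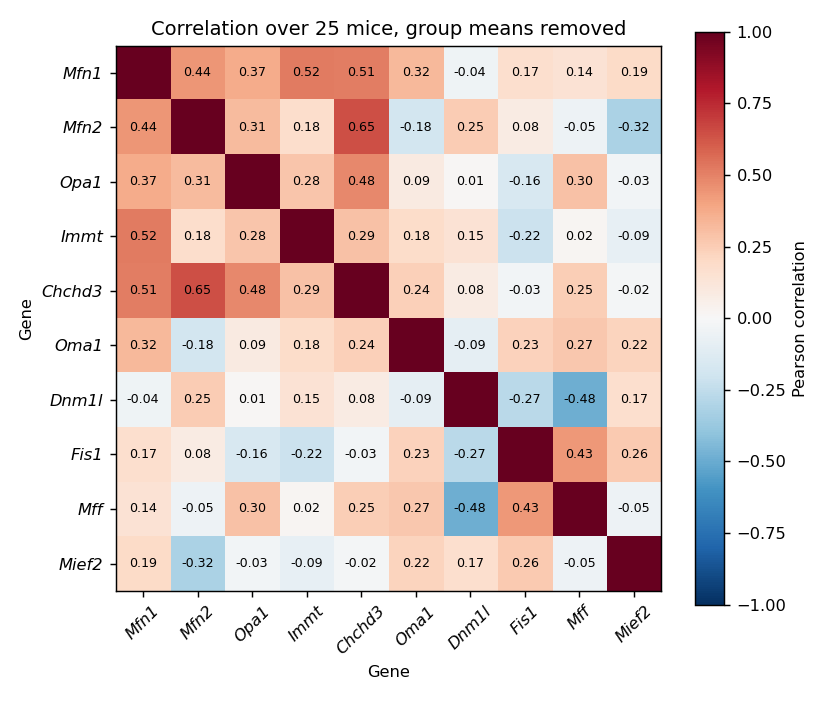
Pearson correlation between each pair of the 10 genes over 25 mice with group means removed, on a colour scale from -1 to 1. The block of Mfn1, Mfn2, Opa1, Immt and Chchd3 is positive throughout, up to 0.65, and the lowest value is that of Dnm1l with Mff, -0.48.

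By mouse, Control 18 had the lowest mean of the 10 genes, 0.25 below its group mean on the log2 scale with 1 of 10 genes above that mean. Thymol 24 had the highest, 0.13 above its group mean with 8 of 10 genes above. It held the highest Mfn1 (7.17 log2 CPM) and the highest Immt (7.90 log2 CPM) of all mice.

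Across the table, 3 of the 10 genes had others that varied with them at an adjusted p under 0.05 in limma. Chchd3 had 240 (2.72% of the 8828 other genes), Mfn1 had 35 (0.396%) and Mff had 1 (0.0113%, Fcer1g, which fell as Mff rose). The call of Fcer1g was lost without any 1 of 14 mice (Control 1, 10, 14, 15, 18, 19, 23, 27 and 35 and Thymol 11, 16, 20, 26 and 30) and with depth as a covariate. Mfn2, Opa1, Dnm1l, Fis1, Immt, Oma1 and Mief2 had 0 (0%). At an unadjusted p under 0.05 the shares ran from 4.27% for Dnm1l to 16.9% for Chchd3, with 11.4% for Mfn2.

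Of the 35 genes that varied with Mfn1, 27 rose and 8 fell with it. Those with the smallest p that rose were Acadm, of medium-chain fatty acid oxidation, Coq10a, a coenzyme Q-binding protein, Atp5pb, of ATP synthase, and Ndufa10, of complex I. Those that fell included the nuclear noncoding RNA Malat1. Of the 20 listed subunits of oxidative phosphorylation, 4 were called and rose with Mfn1 (Ndufs1, Uqcrc1, Cox5a and Atp5f1a), and 19 of 20 had a positive slope. That number was not particular to Mfn1: it was also 19 for Opa1 and Chchd3, 18 for Mfn2 and Immt, and 12 for Mief2, the lowest. The share of all genes with a positive slope was not computed. Akap1, a scaffold that anchors protein kinase A at mitochondria, and Trak2, an adaptor of mitochondrial transport, also rose. The count ranged from 5 without Thymol 21 to 60 without Thymol 3. Without Control 18 there were 44 genes, 19 of them among the 35, and 6 listed subunits were called.

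The 240 genes that varied with Chchd3 were 84 that rose and 156 that fell. The rising genes with the smallest p were Atp5pf, of ATP synthase, Lars2, the mitochondrial leucyl-tRNA synthetase, Tspan8 and Timm44, of the matrix import motor. The falling genes were led by Hoxc9, Bmp4 and Gpnmb, a gene expressed by macrophages, and by Dpt and Postn, of the extracellular matrix. Of the 20 listed subunits of oxidative phosphorylation, 4 rose (Ndufa9, Atp5f1a, Atp5f1b and Atp5f1c), and of the 4 leukocyte markers in the table (8 were listed), Lyz2 and Csf1r fell. This count rested on 1 mouse. Without Control 18 it was 8 genes, against 158 (without Thymol 28) to 323 with any other mouse left out.

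All 8 were among the 240, 7 rose and 1 fell, and Mfn2 was 1 of them (adjusted p = 0.0349 in limma). Atp5pf, Tspan8, Tmem182, Wdr5, Atad1 and Polr2m also rose, and Sox4 fell. None of the 20 listed subunits or of the 4 leukocyte markers was called without Control 18, although 19 of the 20 subunits had a positive slope. The mean leukocyte marker level had r = -0.65 with Chchd3 over 25 mice and -0.48 over the 24 others. For Mff, Opa1, Mfn1 and Mfn2 it was -0.53, -0.46, -0.41 and -0.39 over 25 mice. Over the 24 others it was -0.33, -0.40, -0.19 and -0.45. With the remaining genes it ran from -0.25 (Immt) to 0.08 (Dnm1l) over 25 mice. For the mean fibroblast and tendon marker level, r with Chchd3 was -0.25 over 25 mice and -0.14 over the 24 others, and 0 of the 8 markers were called. Leukocyte markers summed to between 58.0 and 271.7 CPM in control and between 62.6 and 197.0 CPM in thymol mice. Fibroblast and tendon markers (8 of 8 in the table) summed to between 869.5 and 2654 CPM in control and between 754.2 and 2280 CPM in thymol mice. The mean fat-cell marker level had r = -0.39 with Chchd3, -0.35 with Mfn1, -0.28 with Mfn2, -0.26 with Opa1 and 0.05 with Mff over 25 mice. Over the 24 others these were -0.36, -0.31, -0.28, -0.22 and 0.18. The part of these lists in the levels of these genes, or in the relation of Mfn2 with Chchd3, was not tested.

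**Figure D5:**
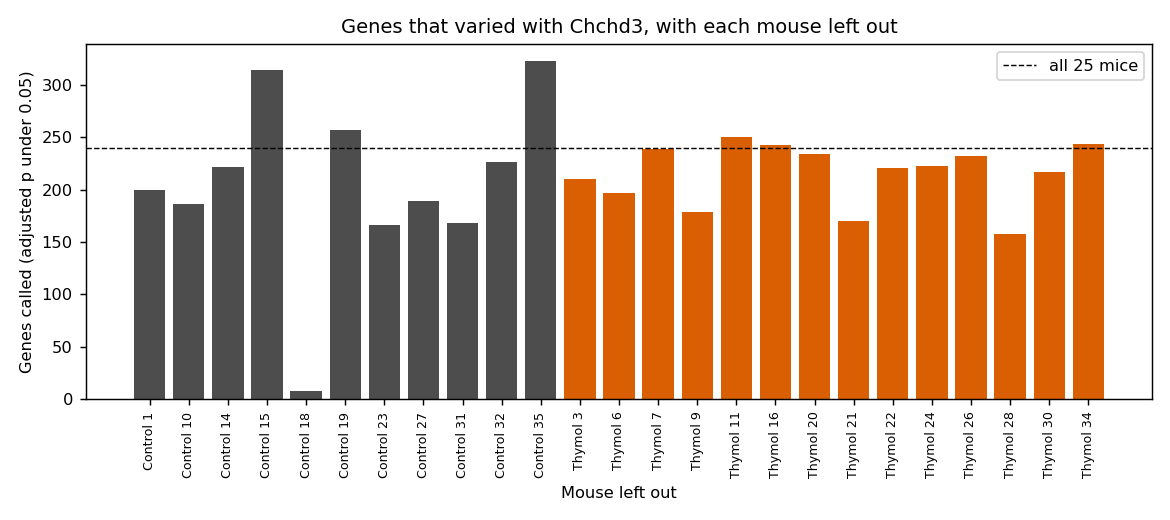
Number of genes that varied with Chchd3 at an adjusted p under 0.05 (vertical axis) with each of the 25 mice left out in turn (horizontal axis), coloured by group, and the number with all 25 mice as a dashed line at 240. It drops to 8 without Control 18 and lies between 158 and 323 otherwise.

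The genes whose pattern over the 25 mice was most like the mean of the 10 were Ugp2 (r = 0.83), Timm44 (0.83), Ndufa10 (0.82), Coq10a (0.82) and Atp5pb (0.79), and those least like it were Rbm25 (r = -0.77), Malat1 (-0.75) and Prpf38b (-0.74). For the single genes the closest were Acadm for Mfn1 (r = 0.81), Trak1 for Mfn2 (0.77), Slc35a2 for Opa1 (0.68), Bysl for Dnm1l (0.71) and Pes1 for Fis1 (0.73). They were Ddx49 for Mff (r = 0.68), Clpb for Immt (0.79), Sh3glb1 for Chchd3 (0.81), Exosc5 for Oma1 (0.67) and Rnf115 for Mief2 (0.67). Spearman's rho with the mean of the 10 was 0.78 for Ugp2, 0.72 for Timm44, 0.70 for Ndufa10, 0.63 for Coq10a and 0.67 for Atp5pb. For Rbm25, Malat1 and Prpf38b it was -0.64, -0.48 and -0.58. For the partners of single genes rho ran from 0.54 (Exosc5) to 0.83 (Clpb), with 0.60 for Sh3glb1. Control 18 had the lowest mean of the 10 genes, and these correlations were not run without it. Each partner of a single gene is the highest among all genes outside the 10 over the same libraries, and none of these values carries a test.

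The mean of the 20 oxidative phosphorylation subunits had r = 0.59 with Mfn1, 0.52 with Opa1, 0.49 with Chchd3 and 0.47 with Mfn2 over the 25 mice, and between 0.07 (Dnm1l) and 0.25 (Immt) with the other 6. For the mean of the 12 other MICOS and contact-site genes, r was 0.59 with Mfn2 and 0.56 with Chchd3, but -0.08 with Immt. Depth had r = -0.49 with Mfn2, 0.46 with Mief2, -0.42 with Opa1 and -0.32 with Dnm1l. With depth removed, r of Mfn2 with Opa1 went from 0.31 to 0.13, while the mean r within the fusion and cristae genes went from 0.40 to 0.43. The part of depth in these relations was not tested beyond these values and the fits with depth as a covariate.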

How the data were processed

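Reads of 3′ transcript ends (QuantSeq) from 25 muscle libraries were mapped by the authors to GRCm38, with STAR 2.5.3 and HTSeq 0.6.1 named in the submitters' processing notes. The deposited values are log2 CPM after TMM scaling, which the authors filtered for low counts, for 8829 genes. Read numbers were worked out from the spacing of the values: 100% of the values were whole within 0.05 reads, and 2 reads had been added in a library of mean size. They were used for depth and for an alternative with voom. Libraries were amplified by PCR, so counting errors describe reads, not molecules. Mice were separate animals. Extraction batches are not given in the sources used here.

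The groups were compared with limma 3.58.1 in R 4.3.3 on the deposited log2 values (treatment term, trended moderation, two-sided, Benjamini-Hochberg over all genes, threshold 0.05). The count test of the study was not used, since the file holds log2 values. Co-variation was fitted in the same way with treatment and the level of 1 gene as terms, and pairs were tested by 100000 permutations of mice within groups (python 3.11.15, numpy 2.4.6, scipy 1.17.1). The procedure was tested on simulated data. Apart from the planted changes, genes were drawn independently with a common spread and no outlying mouse. The simulation therefore cannot show how co-variation calls that rest on a single mouse behave. The members and all gene lists were chosen with earlier results of these data known. Named were all members, the 5 genes most and 3 least like their mean, the closest gene to each member, and list genes with an unadjusted p under 0.05. Some genes that met these rules are not reported here. Genes named in the co-variation fits were chosen after their values were seen. Alternatives covered normalization, filters, moderation, weights, prior, voom, depth, library number, label-number block and each mouse left out. Gene positions are from GENCODE and promoters from RefSeq.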

Additional observations from a re-analysis of the deposited data

How the results depend on the processing

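The count of genes called between thymol and control stayed at 0 under the alternatives run. The first label number was shared by mice of both groups 7 times, and the labels do not say what it means. Over all genes, 9 such pairs of mice had a mean correlation of -0.002 (from -0.18 to 0.10), against 0.0002 for the 145 others. Pairs within a group were not compared, and so few pairs cannot show whether mice with the same number belong together. With the first label number as a block, 0 members had an unadjusted p under 0.05 (Mief2 0.17, p = 0.0615). Immt then turned to 0.0504, and the mean correlation between members was 0.23. Mfn2 turned to 0.0207 with depth as a covariate. With single mice left out, the log2 differences ran from 0.0759 to 0.141 for Mfn1, 0.0334 to 0.0794 for Opa1, 0.0116 to 0.0632 for Dnm1l, 0.052 to 0.135 for Fis1, -0.11 to -0.0427 for Immt, -0.0438 to 0.0113 for Mfn2, -0.0365 to 0.0146 for Mff, -0.0018 to 0.0703 for Chchd3 and -0.0427 to 0.0637 for Oma1. The median over the members ran from 0.0166 (without Control 18) to 0.0591 and was 0.0254 without Thymol 11. The mean correlation ran from 0.067 (without Control 18) to 0.149. The causes were not tested.

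The 1 called member pair fell to 0 under quantile normalization, the block and the depth covariate, and ranged from 0 to 1 with single mice left out. It was lost without Control 10, 23, 27 or 31 and without Thymol 3, 6, 9 or 28. The following alternatives were chosen after seeing the data. Genes called with Chchd3 numbered 8 to 323 with single mice left out (8 without Control 18, 158 without Thymol 28). The 1 gene called with Mff ranged from 0 to 1, and was 0 with depth as a covariate. Those called with Mfn1 numbered 5 to 60, and 61 with depth as a covariate. They fell to 20, 9, 15 and 13 without Control 1, 14, 15 and 19, to 22, 5, 10 and 16 without Thymol 11, 21, 24 and 28, and rose to 60 without Thymol 3. Differences inside the confidence intervals given for the members could not be resolved with these mice.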
